A study of Mus musculus with 4 samples.

Results

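The genes described here are 10 that take up, bind, store and export lipid, together with the nuclear receptors that respond to lipid: Cd36, Lpl, Fabp4, Fabp5, Plin2, Apoe, Abca1, Abcg1, Pparg and Nr1h3. They were taken by symbol from the 35798 genes named in the table of counts, and all 10 had enough counts to be tested. Ly49H+ natural killer (NK) cells were studied after transfer, as a mixture of wild-type cells marked by CD45.1 with TNFR2 KO cells marked by CD45.2, into NSG hosts that were given murine cytomegalovirus (MCMV) 1 day afterwards. On day 3.5 after infection the Ly49H+ cells of either CD45 type were sorted from spleen and sequenced, with 2 libraries per genotype. Every library came from the pooled spleens of 3 NSG hosts, and libraries of equal number in the 2 genotypes shared a pool. Mice of the study were 6 to 12 weeks old. NSG mice have no T, B or NK cells of their own but keep myeloid cells, and their NOD background carries the CD45.1 allele. The effects of genotype, of the CD45 allele and of the gate used in sorting cannot be told apart. All libraries belong to 1 experiment with duplicates, and the sources leave it unclear if the pools held different mice, so p-values measure only the spread between these libraries.

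Cells obtain fatty acids by cutting them out of lipoproteins and by scavenger receptors, move them through the cytosol on fatty acid-binding proteins, and keep the surplus in droplets coated by perilipins. Cholesterol leaves through ABC transporters, which load it onto apolipoproteins. The receptors PPARγ (Pparg) and LXRα (Nr1h3) sense fatty acids and oxysterols, pair with RXR, and switch many of these genes on in macrophages and fat cells. Macrophages of the splenic red pulp, which digest aged red blood cells, are among the cells known for high expression of several of them, whereas they are not used as NK cell markers.

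Total counts ran from 32713256 to 39543650 per library. Expression is given as CPM, counts per 1000000 counts of the library after TMM scaling of the library sizes, and change as log2-fold change, negative where TNFR2 KO was lower. Genes were called where the adjusted p lay below 0.05 and the change exceeded 1 in either direction. Tnfrsf1b, the gene of TNFR2, measured 264.7 and 268.6 CPM in wild-type samples, compared to 55.1 and 58.6 CPM in TNFR2 KO, so its reads were fewer but not absent. All 4 libraries carried the markers of NK cells, 30 genes that summed to 14020 and 13980 CPM in wild-type samples, compared to 22390 and 22360 CPM in TNFR2 KO. With TMM, 29 of 30 were higher at an adjusted p under 0.05, against 24.2% of all genes tested. Of the 30, 5 were called higher, against 1.56% of all genes. Across the 30 genes the median log2-fold change was 0.74, with a range from 0.0144 to 1.56. Gzmb, Il2rb and Prf1, named for their high level, changed by 0.75, 0.44 and 0.83 with TMM. When NK cell genes set the scale, these 3 values became 0.02, -0.29 and 0.10. The 3 genes belong to the 30 that then set the scale, so these values are not an independent result. Ncr1, which encodes NKp46, measured 258.3 and 255.5 CPM in wild-type samples, compared to 511.3 and 510.5 CPM in TNFR2 KO. Klra8, which encodes Ly49H, measured 313.3 and 315.9 CPM against 762.1 and 725.8 CPM. Over all genes 88.3% of the calls were lower in TNFR2 KO with TMM and 98.9% with scaling on NK cell genes.

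All 10 genes were lower in TNFR2 KO libraries, and both TNFR2 KO libraries lay below both wild-type libraries in each of them, a separation seen in 37.7% of all 13822 genes tested. Lpl and Nr1h3 changed most, with wild-type means 9.58-fold and 9.73-fold above those of TNFR2 KO. Plin2, Fabp5, Abcg1 and Pparg changed least, with wild-type means 1.84-fold to 2.24-fold higher. The 10 genes summed to 277.4 and 276.3 CPM in wild-type samples, against 105.2 and 101.1 CPM in TNFR2 KO. Lower levels in such bulk samples can come from fewer cells of a type or from less RNA per cell, which cannot be told apart here.

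With p-values of edgeR's quasi-likelihood test adjusted over all genes by Benjamini-Hochberg, 10 of the 10 had an adjusted p under 0.05 with a lower level in TNFR2 KO, as did 26.2% of all genes tested. With the further threshold of an absolute log2-fold change over 1, 9 of the 10 were called lower, against 11.8% of all genes, and 0 were called higher, against 1.56%. Calls were more frequent among weakly expressed genes, so the level matters to this reading. Of the 5 lipid genes with a mean under 10 CPM (Cd36, Fabp4, Apoe, Abca1 and Pparg), 5 were called lower, against 24% of all genes at that level. Of the 5 with a mean of at least 10 CPM (Lpl, Nr1h3, Abcg1, Fabp5 and Plin2), 4 were called lower, against 4.7% of all genes at that level. The median log2-fold change of the 10 genes was -1.77, with a range from -3.26 to -0.88, beside a median of -0.003 over all genes tested. As the genes were chosen with results of these data known, these counts describe the 10 genes and do not test them as a set.

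**Figure D1:**
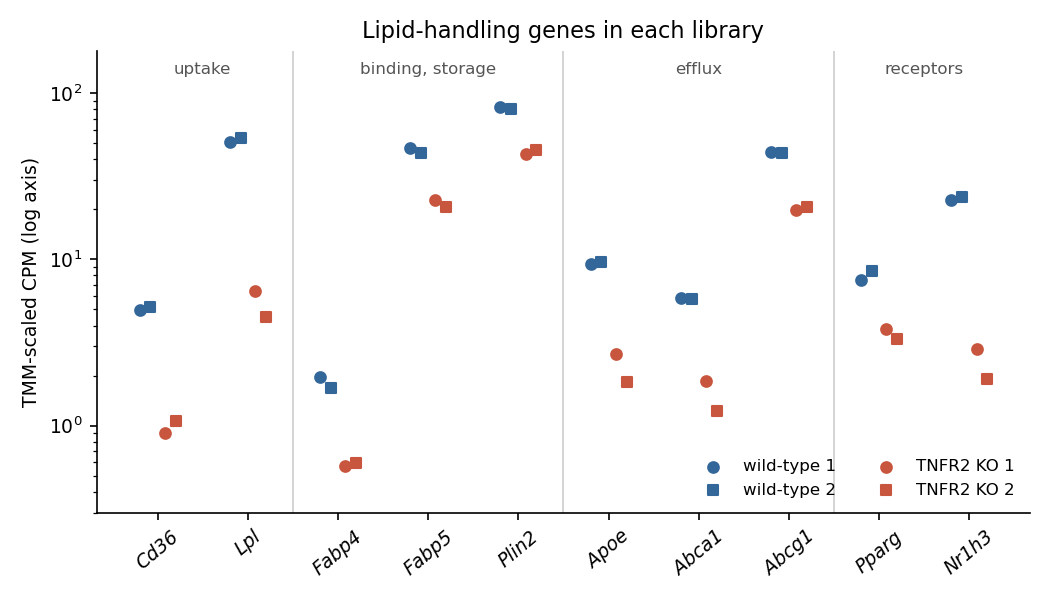
TMM-scaled CPM (log axis) of the 10 lipid-handling genes in each of the 4 libraries, with wild-type in blue, TNFR2 KO in red, circles for pool 1 and squares for pool 2. In every gene both red points lie below both blue points, and the red points of Lpl, Apoe, Abca1 and Nr1h3 stand further apart than the blue ones.

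Among the genes of uptake, Lpl encodes lipoprotein lipase, the secreted enzyme that frees fatty acids from the triglycerides of lipoproteins. Lpl measured 51.2 and 53.8 CPM in wild-type samples, against 6.46 and 4.49 CPM in TNFR2 KO. Both wild-type libraries stood far above both TNFR2 KO libraries. The log2-fold change was -3.24 (standard error 0.103, adjusted p = 7.75e-11, edgeR). Cd36 encodes a scavenger receptor that binds long-chain fatty acids and oxidised lipoproteins. It was a far weaker signal, with 4.98 and 5.18 CPM in wild-type samples, compared to 0.905 and 1.06 CPM in TNFR2 KO. Its log2-fold change was -2.37 (standard error 0.202, adjusted p = 9.23e-07, edgeR). The 95% intervals of these changes, -3.47 to -3.01 for Lpl and -2.81 to -1.93 for Cd36, did not overlap.

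The binding and storage genes changed less. Plin2, which coats lipid droplets, was the most abundant of the 10 genes by CPM, at 82.2 and 80.7 CPM in wild-type samples, compared to 43.4 and 45.4 CPM in TNFR2 KO. Its change of -0.88 (standard error 0.0426, adjusted p = 4.39e-09, edgeR) made it the single gene of the 10 short of the fold change threshold, which it passed (-1.61) with scaling on NK cell genes. Fabp5, an intracellular carrier of fatty acids found in many cell types, measured 47.1 and 43.9 CPM in wild-type samples, compared to 22.8 and 20.7 CPM in TNFR2 KO. Its log2-fold change was -1.06 (standard error 0.0627, adjusted p = 2.90e-08, edgeR), with a 95% interval from -1.20 to -0.92 that spans the fold change threshold, and without TNFR2 KO replicate 2 it was -0.99. Fabp4, the related carrier of fat cells and macrophages, was the weakest of the 10 by CPM. It had 1.95 and 1.68 CPM in wild-type, from 74 and 62 counts, against 0.569 and 0.593 CPM in TNFR2 KO, from 22 and 19 counts. The change of -1.64 (standard error 0.310, adjusted p = 0.000825, edgeR) is therefore the least precise of the 10, with a 95% interval from -2.32 to -0.96. At this depth the changes of Fabp4 and Fabp5 could not be distinguished, as their intervals overlap.

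Of the genes of efflux, Abcg1, a transporter that passes cholesterol to mature lipoprotein particles, was by far the highest by CPM. It measured 44.4 and 43.5 CPM in wild-type samples, compared to 19.9 and 20.6 CPM in TNFR2 KO, a difference of -1.12 on the log2 scale (standard error 0.0543, adjusted p = 4.43e-09, edgeR). Abca1, which loads cholesterol and phospholipid onto lipid-poor apolipoproteins, measured 5.83 and 5.78 CPM in wild-type samples, compared to 1.86 and 1.22 CPM in TNFR2 KO. Its change of -1.90 (standard error 0.205, adjusted p = 8.15e-06, edgeR) was larger than that of Abcg1, with 95% intervals of -2.35 to -1.45 and -1.24 to -1.0003 that did not overlap. Apoe encodes apolipoprotein E, a secreted acceptor of exported lipid, and measured 9.44 and 9.66 CPM in wild-type samples, compared to 2.69 and 1.84 CPM in TNFR2 KO. Apoe changed by -2.06 (standard error 0.173, adjusted p = 8.25e-07, edgeR), with an interval that overlaps the one of Abca1.

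The nuclear receptors differed from each other. Nr1h3 measured 22.8 and 23.6 CPM in wild-type samples, compared to 2.87 and 1.90 CPM in TNFR2 KO. The genotypes did not overlap. Its change of -3.26 (standard error 0.141, adjusted p = 1.48e-09, edgeR) was the largest of the 10 and overlapped in its interval with that of Lpl. Pparg measured 7.51 and 8.46 CPM in wild-type samples, compared to 3.80 and 3.34 CPM in TNFR2 KO. Its log2-fold change was -1.16 (standard error 0.146, adjusted p = 3.23e-05, edgeR), with a 95% interval from -1.48 to -0.84 that spans the fold change threshold. The interval of Nr1h3, -3.57 to -2.95, lies wholly below it.

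**Figure D2:**
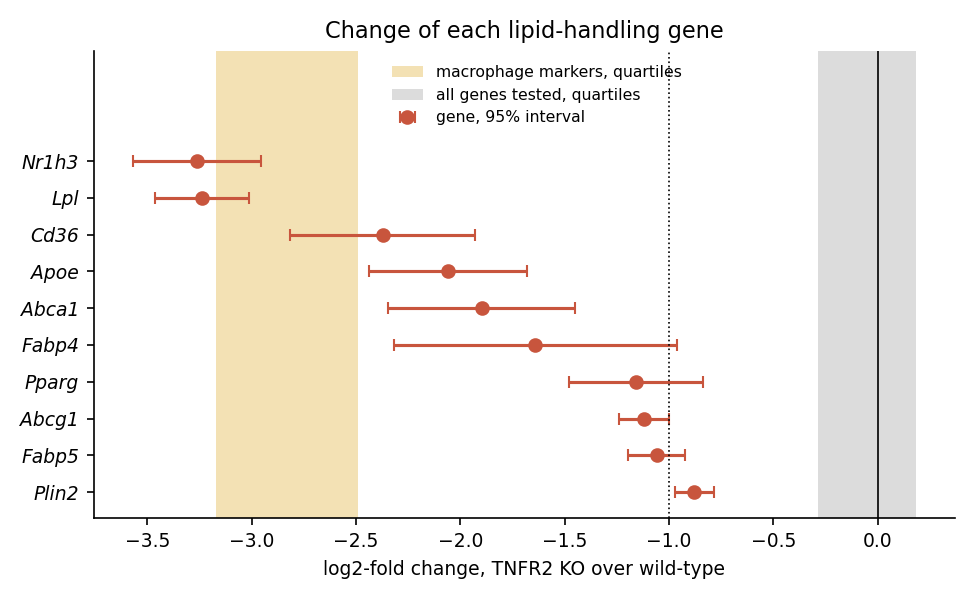
Log2-fold change (TNFR2 KO relative to wild-type) (x axis) for each of the 10 genes, with its 95% interval from edgeR's fit (bars), the fold change threshold (dotted line), and shaded bands for the quartiles of 28 macrophage markers (yellow, -3.17 to -2.49) and of all genes tested (grey, -0.289 to 0.181). Nr1h3 and Lpl lie just below the yellow band, and the other genes above it, down to Plin2 at -0.88.

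The 10 genes lie on 8 chromosomes of mm10 (GRCm38), with positions from GENCODE M21. Fabp4 (chromosome 3, 10204088 to 10208576, minus strand) and Fabp5 (chromosome 3, 10012548 to 10016607, plus strand) are neighbours 187.5 kb apart and differed 22.7-fold in wild-type level per kb. Abca1 (53030787 to 53159895) and Plin2 (86648386 to 86670060) share chromosome 4. Cd36 lies on chromosome 5 (17781690 to 17888801), Pparg on chromosome 6 (115360951 to 115490399), Apoe on chromosome 7 (19696109 to 19699188) and Abcg1 on chromosome 17 (31057675 to 31117988). Lpl lies on chromosome 8 from 68880491 to 68907448, and Nr1h3 on chromosome 2 from 91184061 to 91202834. Sequence shared with other genes could blur the counts most for Fabp5, of whose stretches of 31 bases 9.27% also occur elsewhere, mainly in Gm6166. The share was 5.16% for Plin2, 3.97% for Lpl and under 2% for the other 7.

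As 2 of the 10 genes encode receptors that bind DNA, the 250 bases before each RefSeq start (GRCm38.p6) were searched for the receptors' sites. PPARγ with RXR is known to bind 2 half-sites AGGTCA in a row with 1 base of any kind between them, and LXR with RXR the same half-sites with 4 bases between them. Windows were found for 6 of the 10 genes (Cd36, Plin2, Apoe, Abca1, Pparg and Nr1h3), 11 windows in all, and 0 held either repeat on either strand. Over all 32817 windows the shares with the 2 repeats were 0.0335% and 0.0152%. Any 11 windows were therefore likely to hold 0, and the result says nothing particular about these genes. The half-site AGGTCA, which both repeats contain, was searched on either strand and was present in 4 windows of 3 genes, Cd36, Plin2 and Pparg, and in 14% of all windows. These 4 windows are printed because they alone of the 11 hold a half-site, which is shown in capitals, 5′ to 3′ in the direction of the gene and read as TGACCT where it lies on the other strand.
Cd36 (chr5:17835897-17836146, minus strand): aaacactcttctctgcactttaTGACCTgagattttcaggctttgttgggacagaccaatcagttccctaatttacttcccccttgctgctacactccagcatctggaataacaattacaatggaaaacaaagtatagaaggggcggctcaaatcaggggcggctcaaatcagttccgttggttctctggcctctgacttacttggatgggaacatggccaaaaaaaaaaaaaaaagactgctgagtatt
Plin2 (chr4:86670060-86670309, minus strand): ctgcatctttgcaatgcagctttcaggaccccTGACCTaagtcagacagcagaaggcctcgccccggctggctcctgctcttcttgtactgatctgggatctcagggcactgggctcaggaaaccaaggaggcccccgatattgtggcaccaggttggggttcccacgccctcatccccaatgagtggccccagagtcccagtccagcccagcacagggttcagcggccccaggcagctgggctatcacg
Pparg, window 1 (chr6:115360894-115361143, plus strand): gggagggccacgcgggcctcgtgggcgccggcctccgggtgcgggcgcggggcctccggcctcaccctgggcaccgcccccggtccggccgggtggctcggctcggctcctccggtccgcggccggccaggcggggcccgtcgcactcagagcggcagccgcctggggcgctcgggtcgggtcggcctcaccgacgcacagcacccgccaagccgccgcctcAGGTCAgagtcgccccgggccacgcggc
Pparg, window 2 (chr6:115362099-115362348, plus strand): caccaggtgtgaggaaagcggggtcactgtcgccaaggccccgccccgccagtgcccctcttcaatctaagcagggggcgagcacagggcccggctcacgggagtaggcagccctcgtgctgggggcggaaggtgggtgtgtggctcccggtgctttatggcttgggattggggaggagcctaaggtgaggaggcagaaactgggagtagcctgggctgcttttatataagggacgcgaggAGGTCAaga
In Cd36 and Plin2 the half-site begins 228 and 218 bases before the start, and in the printed windows of Pparg 28 and 9 bases before it, while the third Pparg window (chr6:115421816-115422065) held none. The windows of Nr1h3, Abca1 and Apoe held no half-site of exactly these letters. A match describes letters and not a bound site. Repeats that differ from these letters were not searched for, so a window without a match can still hold a site.

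The 10 changes fell along a graded order rather than at 1 value. The intervals of Nr1h3 and Lpl overlapped each other and none of the rest. Cd36, Apoe and Abca1 followed, from -2.37 to -1.90, with intervals that overlapped their neighbours. Pparg, Abcg1 and Fabp5 lay between -1.16 and -1.06 and could not be ordered, whereas the interval of Plin2, -0.97 to -0.79, overlapped that of Fabp5 but not that of Abcg1. Fabp4, with its wide interval, overlapped every gene from Cd36 to Plin2.

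Levels can be compared between genes only after division by transcript length, here by the longest coding transcript of each gene in GENCODE M21. On that scale, CPM per kb, Fabp5 and Plin2 stood highest in wild-type, at 46.1 ± 2.30 and 43.2 ± 0.557 (SD over 2 libraries each). Lpl and Nr1h3 came next at 12.8 ± 0.449 and 11.9 ± 0.287, ahead of Abcg1 at 7.54 ± 0.108 and Apoe at 6.78 ± 0.109. Pparg, Fabp4, Cd36 and Abca1 ran from 3.76 ± 0.316 down to 0.565 ± 0.0034. The libraries of Fabp5 (47.7 and 44.5) and Plin2 (43.5 and 42.8) did not overlap, nor did those of Lpl (12.4 and 13.1) and Nr1h3 (11.7 and 12.1), but these gaps were close to the spread between duplicates and were not tested. In TNFR2 KO the top pair remained Plin2 and Fabp5, at 23.5 ± 0.749 and 22.1 ± 1.49. Abcg1 came next at 3.47 ± 0.0773, and Pparg at 1.68 ± 0.153 and Apoe at 1.61 ± 0.425 were level with Lpl at 1.33 ± 0.338 and Nr1h3 at 1.22 ± 0.349 within their spread. Lpl and Nr1h3 had thus dropped below Abcg1, which they exceeded in wild-type.

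**Figure D3:**
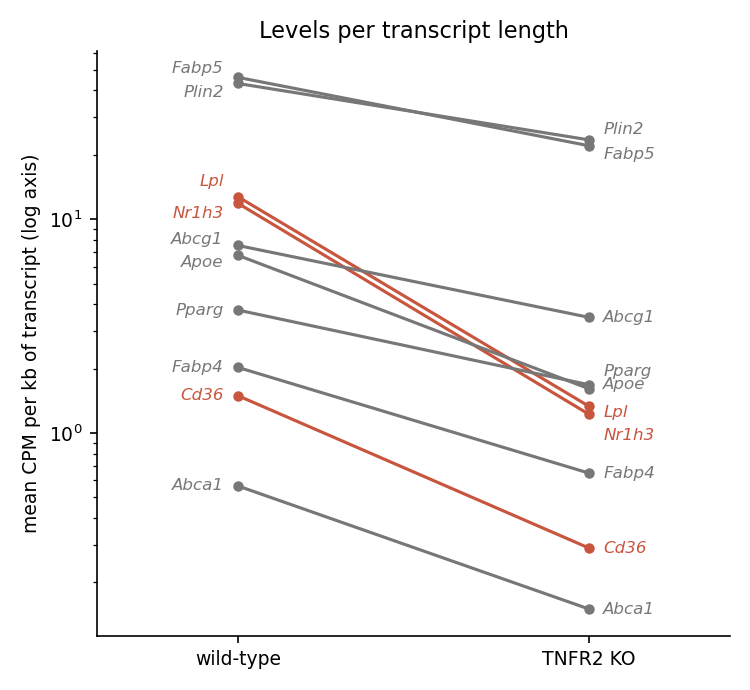
Mean CPM per kb of the longest coding transcript (log axis) in wild-type and TNFR2 KO libraries, with 1 line per gene and red for the 3 genes whose wild-type mean was more than 5 times the TNFR2 KO mean (Lpl, Nr1h3 and Cd36). The red lines of Lpl and Nr1h3 cross that of Abcg1, from 12.8 and 11.9 to 1.33 and 1.22, while Fabp5 and Plin2 stay on top.

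Wild-type duplicates stayed within 0.214 of each other on the log2 scale in each of the 10 genes, while 4 genes lay more than 0.5 apart in the TNFR2 KO duplicates. Replicate 1 exceeded replicate 2 by 0.61 for Abca1, 0.59 for Nr1h3, 0.55 for Apoe and 0.52 for Lpl, as log2 ratios. For Nr1h3 this was 2.87 CPM (95% Poisson interval 2.36 to 3.46, from 111 counts) against 1.90 CPM (1.46 to 2.45, from 61 counts), and for Lpl 6.46 CPM (5.69 to 7.32) against 4.49 CPM (3.79 to 5.29), where intervals cover counting error only. Those of Lpl did not overlap and those of Nr1h3 overlapped slightly. Among the 2930 genes with a TNFR2 KO mean of 1 to 10 CPM, 6.83% were higher by at least 0.5 in replicate 1 and 4.81% in replicate 2. The other 6 genes differed between these duplicates by 0.23 or less, in either direction. The 28 tested macrophage markers had a median log2 ratio of 0.01 between the TNFR2 KO duplicates, with quartiles of -0.04 and 0.06. Single markers lay further apart, such as Cd14 (2.71 and 2.03 CPM) and Marco (1.34 and 0.968 CPM), both named after their values were seen. Within pool 1 the log2 ratio of TNFR2 KO to wild-type was -2.99 for both Lpl and Nr1h3, and within pool 2 it was -3.58 and -3.63. In both pools all 10 genes were lower in TNFR2 KO.

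Beyond the 10, a list of 89 other genes of lipid uptake, storage, export and their receptors was examined, of which 59 could be tested. Their median log2-fold change was -0.03, close to that of all genes. Of the 59, 8 were called lower (13.6%, against 11.8% of all genes) and 1 was called higher, against 1.56% of all genes. At an adjusted p under 0.05, 20 had a lower level and 17 a higher one, against 26.2% and 24.2% of all genes. The wider list was thus split between directions under TMM. Scaling on NK cell genes, which moved the median of all genes to -0.735, left 21 of the 59 called lower and 0 higher. With that scaling, 3457 of all 13822 genes were called lower and 37 higher, so calls shifted downwards over all genes too.

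Of the 17 other genes of uptake that were tested, 5 were called lower, against 11.8% of all genes, and 12 were not called. Lrp1, a large endocytic receptor that also binds Apoe, measured 103.4 and 97.4 CPM in wild-type samples, compared to 10.5 and 11.8 CPM in TNFR2 KO, a difference of -3.18 on the log2 scale (adjusted p = 7.57e-13, edgeR). The macrophage scavenger receptor Msr1 and the high-density lipoprotein receptor Scarb1 had log2-fold changes of -3.22 and -1.70. Olr1 and Lipg, named after their values were seen, were the remaining 2, at under 2 CPM in wild-type. Lysosomal acid lipase (Lipa), which releases cholesterol from engulfed lipoproteins, had a log2-fold change of -0.82 with an adjusted p of 6.93e-09 in edgeR's test. Lipa fell short of the fold change threshold with TMM and passed it (-1.55) with scaling on NK cell genes. Scarb2, a lysosomal membrane protein and abundant in the list, measured 83.9 ± 0.512 CPM in wild-type samples, compared to 83.6 ± 0.411 CPM in TNFR2 KO (SD over 2 libraries each), a difference within the replicate spread that became -0.74 on the log2 scale with scaling on NK cell genes.

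Of 16 tested genes of binding and storage, 2 were called lower, a share near the 11.8% of all genes. They were Dgat2, an enzyme that makes triglyceride, with -2.52 (adjusted p = 7.89e-06, edgeR), and Fabp3, the carrier of heart and muscle. Fabp3 rested on 27 and 12 counts in wild-type and 0 and 3 in TNFR2 KO, and lost its call without wild-type replicate 1 (adjusted p = 0.119). Fabp7, the brain form, had at most 2 counts in any library and was not tested. Plin3, a second droplet coat protein, had a log2-fold change of -0.87, near that of Plin2 at -0.88, and -1.60 with scaling on NK cell genes. Soat1, which esterifies cholesterol for storage, measured 93.8 ± 1.81 CPM in wild-type samples, compared to 65.9 ± 2.44 CPM in TNFR2 KO (SD over 2 libraries each). Its log2-fold change was -0.51 with TMM and -1.24 with scaling on NK cell genes. The droplet lipase Pnpla2 and the droplet assembly factor Bscl2 had log2-fold changes of 0.20 and 0.36, which became -0.54 and -0.38 with scaling on NK cell genes.

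The other genes of efflux were split. Of 14 tested 1 was called lower, Abca9 at -2.58 (adjusted p = 9.93e-07, edgeR), against 11.8% of all genes. At an adjusted p under 0.05, 6 had a higher level and 2 a lower one, against 24.2% and 26.2% of all genes. Abca7, a close relative of Abca1, measured 188.9 and 194.1 CPM in wild-type samples, compared to 225.3 and 230.8 CPM in TNFR2 KO. Its log2-fold change of 0.25 (adjusted p = 1.39e-05, edgeR) and the 0.47 of Abca2 pointed upwards with TMM and turned to -0.48 and -0.26 with scaling on NK cell genes. Npc2, which carries cholesterol out of lysosomes, measured 359.8 ± 2.24 CPM in wild-type samples, compared to 352.4 ± 2.19 CPM in TNFR2 KO (SD over 2 libraries each), and its change of -0.03 did not pass the test (adjusted p = 0.340). It passed with scaling by library size alone (-0.09, adjusted p = 0.00860), with a filter at a mean of 10 CPM (-0.07, adjusted p = 0.0326) and with scaling on NK cell genes (-0.76, adjusted p = 2.45e-11).

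Receptor relatives also stood apart from Nr1h3 and Pparg. Nr1h2 encodes LXRβ, the widely expressed relative of LXRα. It measured 96.98 and 102.6 CPM in wild-type samples, compared to 111.4 and 118.8 CPM in TNFR2 KO. Its log2-fold change was 0.20 with TMM and -0.53 with scaling on NK cell genes. Ppard, the widely expressed PPARδ, measured 33.3 ± 0.0331 CPM in wild-type samples, compared to 33.3 ± 0.478 CPM in TNFR2 KO (SD over 2 libraries each; log2-fold change -0.0008, adjusted p = 0.991, and -0.73 with scaling on NK cell genes). Rxra, the shared partner of these receptors, changed by -0.58 on the log2 scale (adjusted p = 3.92e-07, edgeR), and by -1.31 with scaling on NK cell genes. The corepressor Ncor1 had a log2-fold change of 0.14 under TMM and -0.59 when NK cell genes set the scale. Ppara, which drives fatty acid oxidation in liver, had at most 6 counts in any library and was not tested. The coactivator Ppargc1a was the single gene of the 59 called higher, against 1.56% of all genes, and lay under 1 CPM in every library. Its log2-fold change was 1.61 (adjusted p = 0.0180, edgeR), and DESeq2 did not call it (adjusted p = 0.148). Ppargc1a also lost its call without wild-type replicate 1 (adjusted p = 0.144), wild-type replicate 2 (0.0790) or TNFR2 KO replicate 1 (0.132), and with scaling on NK cell genes (0.117).

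**Figure D4:**
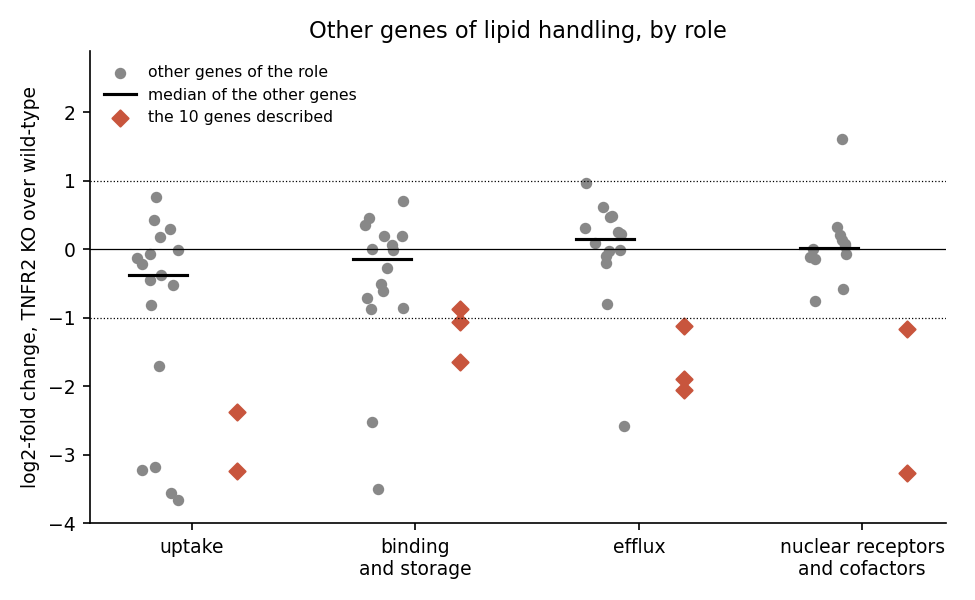
Log2-fold change (TNFR2 KO relative to wild-type) (y axis) for the 59 other tested genes of lipid handling (grey circles, with the median of each role as a black line) and the 10 genes described (red diamonds), by role. Black medians lie between -0.378 for uptake and 0.153 for efflux, while the red diamonds lie between -0.88 and -3.26.

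Markers of other cell types moved with the lipid genes. Of 30 macrophage markers, 28 could be tested and 23 were called lower and 0 higher, against 11.8% and 1.56% of all genes. The median log2-fold change of the 28 was -2.87. Their summed level was 3416 and 3394 CPM in wild-type samples, compared to 1675 and 1648 CPM in TNFR2 KO. Much of the TNFR2 KO sum came from Ccr2 and Ly6c2, which measured 678.2 and 313.6 CPM there and 393.8 and 261.7 CPM in wild-type, although with scaling on NK cell genes the log2-fold change of Ccr2 was 0.05 (adjusted p = 0.115, edgeR) and that of Ly6c2 was -0.47. Lyz2, another abundant gene of the list, measured 774.6 CPM in wild-type samples and 112.2 CPM in TNFR2 KO. Defining macrophage genes were low but present in TNFR2 KO. Csf1r, the receptor for macrophage colony-stimulating factor, measured 27.4 and 26.7 CPM there, from 1059 and 854 counts against 9640 and 9418 in wild-type. Spic, the red pulp macrophage factor, measured 5.69 and 5.84 CPM there, from 220 and 187 counts against 1770 and 1568 in wild-type. Of the list, Clec4f had 0 counts in all 4 libraries. The changes of Lpl and Nr1h3 lay just below the lower quartile of the macrophage list, -3.17, and the other 8 above its upper quartile, -2.49. The part of macrophage RNA in the lipid gene result was not tested.

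Fat cells are also known for Fabp4, Lpl, Plin2 and Pparg. Of 6 adipocyte markers 0 passed the filter on low counts, and Adipoq and Lep had 0 counts in every library. Of 12 endothelial or stromal markers 7 could be tested and 5 were called lower, against 11.8% of all genes. They summed to only 12.4 and 13.0 CPM in wild-type samples, compared to 4.71 and 3.78 CPM in TNFR2 KO. Lists of neutrophils or their precursors, mast cells or basophils, erythroid cells, dendritic cells or class II, and megakaryocytes or platelets had medians between -5.03 and -1.85. Of their 53 tested genes, 46 were called lower, against 11.8% of all genes. Neutrophil markers summed to 1014 and 1031 CPM in wild-type and 100.3 and 96.6 CPM with TNFR2 KO, and mast cell markers to 1300 and 1293 CPM and 42.9 and 42.4 CPM in the same order. The sums were 288.7 and 283.5 CPM against 61.7 and 65.5 CPM for erythroid cells, and 1762 and 1799 CPM against 155 and 153.9 CPM for dendritic cells or class II. Those of megakaryocytes were 41.6 and 38.8 CPM against 3.96 and 4.90 CPM. In the list of dendritic cells or class II, 6 of 10 tested genes were called lower and 4 had no adjusted p under 0.05. Its sum came mostly from the class II genes Cd74, H2-Aa, H2-Ab1 and H2-Eb1. Zbtb46, a dendritic cell factor, had 111 and 93 counts in wild-type and 101 and 86 in TNFR2 KO. These genes were named after their values were seen. Median changes of B and T cell lists were 0.33 (3 genes tested) and -0.26 (11 genes tested). The part of these cell types in the lipid gene result was not tested either.

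**Figure D5:**
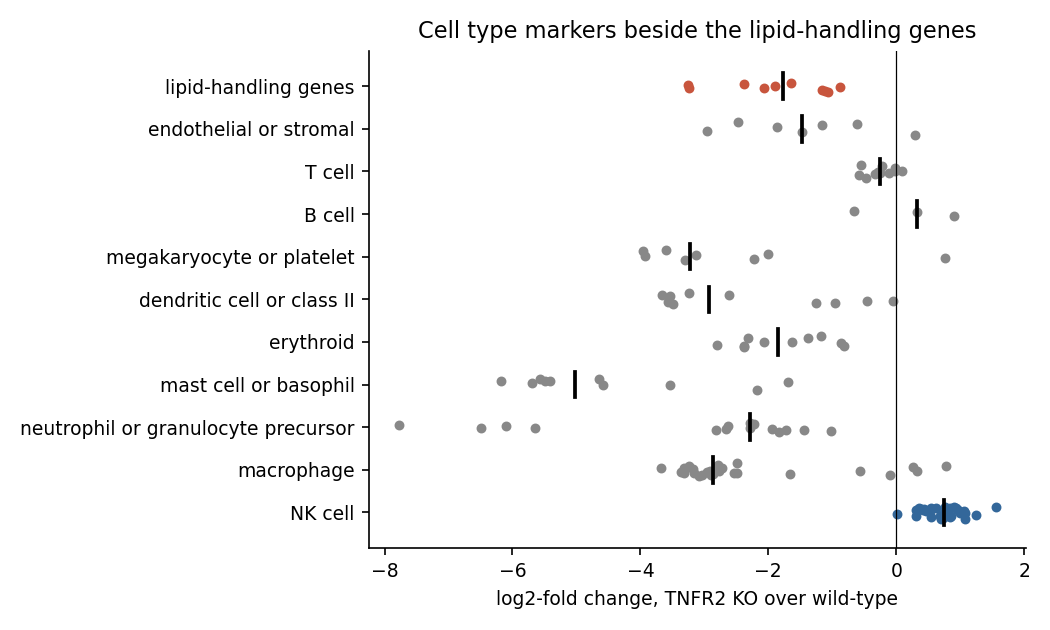
Log2-fold change (TNFR2 KO relative to wild-type) (x axis) of each tested marker gene, by cell type, with the 10 lipid-handling genes in the top row; black ticks are medians. NK cell markers (blue) have a median of 0.74, macrophage markers of -2.87 and the lipid-handling genes of -1.77.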

How the data were processed

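RNA of Ly49H+ NK cells sorted from spleen was sequenced as poly-A stranded libraries in 100 bp paired-end reads, with 2 libraries per genotype. The authors trimmed reads with Trimmomatic 1.4, quantified them with kallisto 0.46.1 against mm10 and summed transcripts to genes with tximport. For the annotation, no release was named in any source used here. The deposited values are estimated counts per gene, which were rounded for testing. A row without a gene name (0.0559% to 0.0728% of counts) was left out.

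Genes passing filterByExpr (13822 of 35798) were fitted in edgeR 4.0.16 (R 4.3.3) with TMM scaling and no replicate block, and genotypes were compared by the quasi-likelihood test. A call required both an absolute log2-fold change above 1 and an adjusted p below 0.05. Limma 3.58.1 was loaded with edgeR. Alternatives were DESeq2 1.42.0, other scalings (among them on 30 NK cell genes), other filters, the replicate block and leaving out each library. Tested on simulated counts of 13565 genes, edgeR recovered 100% of 200 changed genes with 0 false calls. All 200 were changed by 2 on the log2 scale, up in as many genes as down, and the weakest genes were left unchanged. Recovery of smaller changes, or of changes in genes as weak as Fabp4, was therefore not tested. Nor was the scaling tested where most changes go in 1 direction, as in the data, where 88.3% of calls were lower.

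Per the labels, libraries of the same number came from the same pool of 3 mice, which pairs them. The departures of paired libraries from the means of their genotypes correlated at 0.0487. Totals were 32713256 to 39543650 counts. Counts of duplicates differed by more than sampling noise, with a mean chi-square of 3.29 in wild-type and 3.49 in TNFR2 KO. Outside the 10 genes, most named genes were close relatives of them or the most abundant and most significant genes of each role. The most abundant macrophage and NK cell markers were named too. Tnfrsf1b was named as the targeted gene, and Clec4f, Adipoq and Lep as genes without counts. Ncr1, Klra8, Csf1r and Spic were named outside this rule, and further genes are said to be named after their values were seen. The members and lists were chosen with earlier results of these data known. 1 result of the wider list is not reported here.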

Additional observations from a re-analysis of the deposited data

How the results depend on the processing

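Of the 10 lipid genes, 9 were called lower under each alternative except scaling on NK cell genes (10), the omission of TNFR2 KO replicate 2 (8) and a mean of at least 10 CPM (4 of the 5 still tested). The replicate block gave 9, with 1616 genes lower and 214 higher over all against 1627 and 215 without it, and left the calls of the 10 genes and of the other named genes in place. With scaling on NK cell genes, 21 genes of the wider list were lower and 0 higher, and over all 3457 and 37. The mean of at least 10 CPM gave 3 and 0 in the wider list and 420 and 58 over all. Calls of the wider list that were higher numbered 0 with DESeq2 and 2 without a filter. Leaving out 1 library at a time gave 8 to 9 of the 10 lower, 7 to 9 lower and 0 to 2 higher in the wider list, and 1431 to 1659 lower and 208 to 219 higher over all. Where 1 library remained in a group, it was assumed to vary like the other group.

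Signs turned in 2 genes near 0. Ppard was 0.000987 with DESeq2 size factors, 0.00822 with upper-quartile scaling, 0.00503 with DESeq2, 0.00484 without a filter, 0.00828 and 0.00684 without wild-type replicate 1 or 2 and from -0.01001 to 0.0249 without TNFR2 KO replicate 2 or 1. Scarb2 was 0.00415 with upper-quartile scaling, 0.000712 with DESeq2, 0.000769 without a filter, 0.00946 without wild-type replicate 1 and from -0.00477 to 0.0108 without TNFR2 KO replicate 2 or 1. Scaling on NK cell genes, which moved the median of all genes to -0.735, gave -0.73 for Ppard and -0.74 for Scarb2 and turned Nr1h2 to -0.53, Abca7 to -0.48, Pnpla2 to -0.54, Bscl2 to -0.38, Abca2 to -0.26, Ncor1 to -0.59, Ly6c2 to -0.47 and Il2rb to -0.29.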
